A study of Mus musculus with 10 samples.

Results

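The nuclear genes for the subunits of oxidative phosphorylation made up 79 of the 11011 genes in a table of ribosome footprint counts from mouse embryonic stem cells. They were taken by symbol. Names that start with Nduf followed by a, b, c, s or v and a digit gave 37 genes of complex I, and Sdha to Sdhd gave the 4 genes of complex II. Names starting with Uqcr gave 8 genes of complex III, Cox4 to Cox8 gave 14 genes of complex IV, and Atp5 gave 16 genes of complex V. Each gene was kept in the complex its symbol names, although Ndufa4 is now counted with complex IV, Cox7a2l helps join complexes III and IV, and Atp5s is not a structural subunit of the enzyme. All 79 passed the filter on low counts, and they lie on 19 chromosomes. Atp5g2, Cox6a2, Cox8b and Cox8c, and the subunits encoded by mitochondrial DNA, were not analysed here.

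Oxidative phosphorylation takes place in the inner mitochondrial membrane. Complex I accepts electrons from NADH and complex II from succinate, complex III passes them to cytochrome c, and complex IV hands them to oxygen. Complexes I, III and IV pump protons while this happens, and complex V, the ATP synthase, lets the protons back through a turning rotor to make ATP. Most subunits are small proteins made on cytosolic ribosomes, imported, and assembled with a core encoded by mitochondrial DNA, while complex II is wholly nuclear. Embryonic stem cells are known for a high rate of glycolysis beside this pathway.

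Footprints are the stretches of mRNA that ribosomes shield from nuclease, so their number follows both the amount of an mRNA and how many ribosomes it carries. Because no mRNA libraries were analysed here, mRNA amount and translation cannot be told apart. The 10 libraries came from the mouse line E14, of 129/Ola background, grown on gelatine with serum and LIF, and the stated purpose was a record of ribosome binding in WT and in RNAi mutant cells. There were 5 groups of 2 libraries, namely WT, Dgcr8 knockout, Drosha knockout, Dicer knockout, and a double knockout of Ago1 and Ago2 (Ago libraries below). Dgcr8 and Drosha start miRNA processing in the nucleus, Dicer cuts the precursor in the cytoplasm, and Ago proteins carry the finished miRNA. The labels give neither the deleted part of each gene nor the number of clones, and they do not say that replicates were separate cultures, so each p-value covers the spread of these libraries alone, which may be technical.

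Total counts ran from 1754710 to 80850950 per library, a 46.1-fold range, and those of Drosha, Dicer and the second Dgcr8 library, at most 5432599, were the lowest. Footprints of Drosha, Dicer1 and Ago2 were lower in the lines labelled as their knockouts, with log2 fold changes of -2.59, -2.72 and -2.94 (edgeR quasi-likelihood test, adjusted p 0.0067, 0.0026 and 0.0059). Dgcr8 went the other way. It was at 145 and 146 CPM (counts scaled to the size of the library) in the libraries labelled Dgcr8 knockout. WT had 32.7 and 33.1, and the log2 fold change was 2.14 (adjusted p 0.015 by edgeR). Dgcr8 was also higher in the Drosha libraries, at 169 and 197 CPM (2.48, 0.0028), in Dicer (1.09, 0.021) and in Ago (1.07, 0.047). Ago1 was at 27.0 and 10.7 CPM in the Ago libraries against 14.7 and 14.3 in WT (0.37, 0.67). Its log2 fold change was 2.2 in Drosha (0.022), 2.33 in Dicer (0.0062) and 1.11 in Dgcr8 (0.39). The cause of these rises was not tested. A count over the whole gene can miss a deletion of part of it, so this was no check of the Dgcr8 and Ago1 labels, and the Dgcr8 libraries, and the Ago libraries as far as Ago1 goes, are so called by label alone. Of 10 pluripotency markers all were counted, and their summed level stayed within 4870 to 6220 CPM in the 10 libraries. Of 10 primitive endoderm markers 8 were in the table, and their sum was 6490 to 7400 CPM in WT, 340 to 3580 in the Dgcr8 libraries, and 275 to 607 in the Drosha, Dicer and Ago libraries. Gata6, which helps define that lineage, had 0 counts in both Dicer libraries, where 3 counts would be 0.552 and 1.71 CPM. In such bulk samples, fewer cells of a type and less RNA per cell cannot be told apart. The part that these marker differences had in the results on the respiratory subunits was not tested.

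In WT cells the subunits were among the genes with the most footprints per length. Genes can be compared only per length, so CPM was divided by the coding length in kilobases to give a footprint density. The median density of the 79 genes was 279, against 20.8 over 10976 genes with a coding length. Of the 79, 75 lay above that median and 70 above the upper quartile of all genes, 59.7. The members are short, with a median coding length of 411 nt against 1455 nt, and densities were not compared among genes of like length. By complex, the median density was 227 in complex I, 278 in complex II, 481 in complex III, 698 in complex IV and 419 in complex V.

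Atp5b, the catalytic beta subunit of the ATP synthase, had the highest density, 2360 ± 173 (SD, n = 2). Its partner in the catalytic head, the alpha subunit Atp5a1, had 1360 ± 88.4. Atp5c1, which forms the central stalk and is present in fewer copies than alpha and beta in the assembled enzyme, had 361 ± 53.3. Atp5g3, a gene for the membrane c subunit that forms the rotor ring, had 1620 ± 11.4. Alpha, beta and c are the subunits present in several copies, but Atp5e, a small single-copy stalk subunit, also had 1450 ± 307. At the other end Atp5s had 13.0 ± 2.05, below the median of all genes.

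Complex II, the smallest complex, showed the most even densities. Sdha, the flavoprotein that oxidises succinate, had 265 ± 3.74, the iron-sulphur subunit Sdhb 282 ± 31.8, and the membrane anchors Sdhc and Sdhd 523 ± 112 and 273 ± 3.35. In complex III the density was highest for the small subunit Uqcrq, at 1060 ± 45.5, and lowest for Uqcrb, at 96.8 ± 31.9. The core protein Uqcrc1 and the Rieske iron-sulphur protein Uqcrfs1 stood between, at 626 ± 8.67 and 270 ± 6.94. Complex I ran from 1660 ± 317 for Ndufa4 down to 12.9 ± 4.14 for Ndufb4. Its core subunits Ndufv1 and Ndufs1, which take part in NADH oxidation and electron transfer, were close together, at 188 ± 10.8 and 188 ± 1.55. That closeness rests on the longest annotated coding sequence of each gene, since with the median length over transcripts these became 594 and 1390, and Uqcrc1 became 1850.

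Several subunits exist as a general form and a form known from particular tissues or conditions, and in each such pair the general form dominated. Cox4i1 had a density of 2030 ± 239 in WT, while Cox4i2, the form known from lung and from low oxygen, had 22.4 ± 3.66. Cox6b1 had 1300 ± 229 and the testis form Cox6b2 had 103 ± 12.4. For the heart and muscle form Cox7a1 the density was 60.7 ± 9.24, against 1230 ± 316 for Cox7a2. Ndufa4l2, a relative of Ndufa4 known to be induced by low oxygen, had 53.8 ± 12.9 against 1660 ± 317. Cox6a1 and Cox8a, the general forms of their families, had 1720 ± 221 and 1290 ± 45.5.

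**Figure D1:**
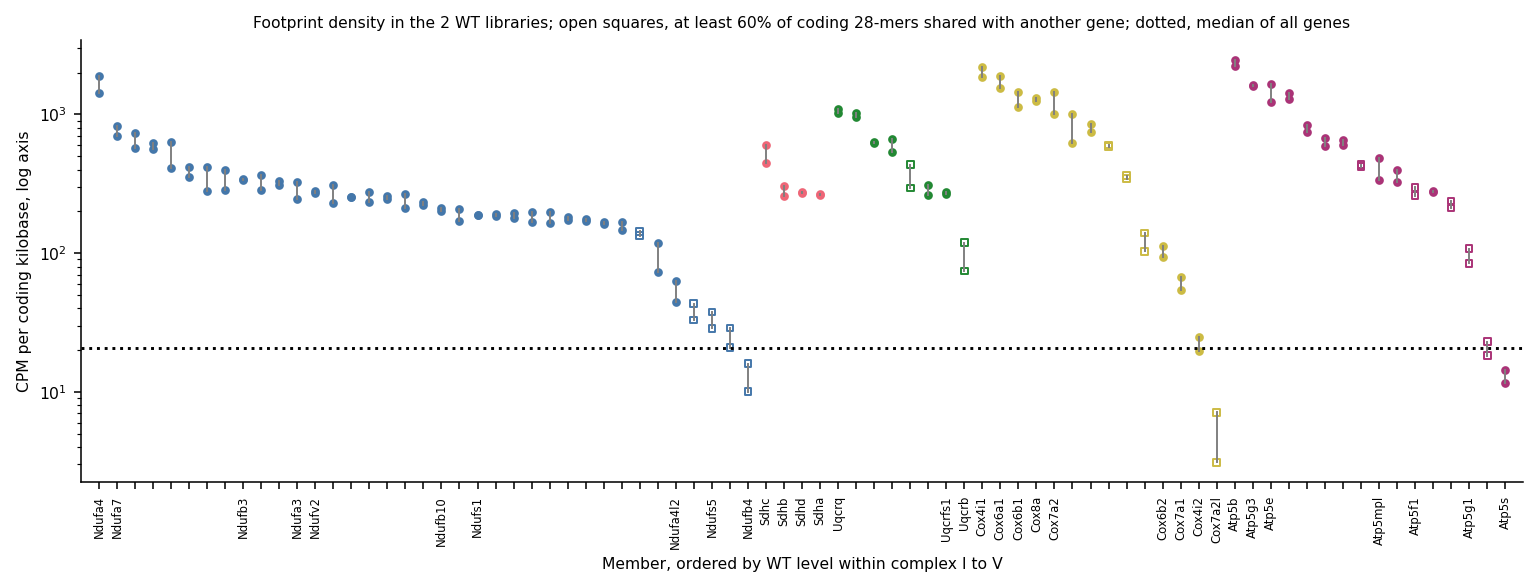
Footprint density (CPM per coding kilobase, log axis) of the 79 genes in each of the 2 WT libraries, ordered by level within complexes I to V, which are told apart by colour from left to right, with names under selected genes. Open squares mark genes that share at least 60% of their coding 28-mers with another gene, and the dotted line is the median of all genes, 20.8.

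The sequence of a gene bears on how well these levels can be read. Many respiratory genes have left processed pseudogenes, copies of the mRNA inserted elsewhere in the genome, and a footprint from a stretch shared with such a copy cannot be placed. A search of the GENCODE transcripts on GRCm38 asked which stretches of 28 coding bases of a member also occur, on either strand, in any other gene. For Atp5g1, Atp5l, Cox7c and Ndufb4 the share was 100%, for Uqcrb 91.8% and for Ndufs5 82.1%. Counts of such genes are uncertain, because the handling of reads with several matches is not given in the sources used here. The 16 members at 60% or more had a median density of 109 in WT, against 322 for the other 63. Among the 16, Ndufb2, at 70.1%, shared most with Gm42420, a coding gene that overlaps it, so a shared stretch need not be a copy elsewhere. Cox7a2l, the lowest of all at 5.1 ± 2.84, was among the 16 with 63.5%, whereas Atp5s, Cox4i2, Cox6b2 and Cox7a1 were low with 0% shared. Besides, 24 members overlap another coding gene, and without a stated strand setting reads of the 2 genes cannot be separated.

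Loss of Dicer was the comparison in which subunits passed the test against WT. Under edgeR's quasi-likelihood test, with Benjamini-Hochberg adjustment over 10978 genes and a threshold of 0.05, 4 members fell and 0 rose. Over all genes 3.76% were called lower and 7.35% higher, 11.1% together, so 4 of 79 is near the background of this fit. The 4 were Sdhd in complex II, Ndufa7 and Ndufa4l2 in complex I, and Atp5f1 in complex V. At an unadjusted p under 0.05 there were 20 members, or 25.3%, beside 27.0% of all genes. DESeq2 called 12 and limma-voom 4, and edgeR called 24 when only the Dicer and WT libraries were fitted. The shares of all genes called under these other settings are not given here, so these counts cannot be set beside 3.76%. All 4 calls were lost when either WT library or either Dicer library was left out, where the lone library is assumed to vary like the other groups.

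Sdhd, a membrane anchor of succinate dehydrogenase that helps hold its ubiquinone site, gave the clearest picture. Its footprints stood at 132 and 129 CPM in WT and at 104 and 94.2 in the Dgcr8 libraries. The Drosha pair had 50.1 and 80.4 CPM, the Dicer pair 48.6 and 56.3, and the Ago pair 48.1 and 66.9. Every knockout library lay below both WT libraries, and those of Drosha, Dicer and Ago lay below both Dgcr8 libraries. Against WT the log2 fold change was -1.32 ± 0.31 (SE) in Dicer, with an adjusted p of 0.019 by edgeR. The values in the other comparisons were -1.18 ± 0.30 in Ago (adjusted p = 0.059), -1.0 ± 0.30 in Drosha (0.099) and -0.40 ± 0.30 in Dgcr8 (0.73). DESeq2 called Sdhd in Drosha and in Ago as well. The other subunits of the same enzyme gave different values in Dicer, namely 0.19 ± 0.25 for Sdha, -0.26 ± 0.25 for Sdhb and -0.80 ± 0.27 for Sdhc, with adjusted p of 0.67, 0.53 and 0.079. Whether Sdhd differs from them was not tested.

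The gene Sdhd lies on the minus strand at chr9:50596357-50603812 (GRCm38) and shares 0% of its coding 28-mers. Its 3′ UTR of 731 nt carries matches to the seeds of the miRNA families best known from mouse embryonic stem cells, so the miRNAs are shown from RefSeq (GRCm38.p6) with bases 2 to 8, the seed, in capitals. The first 3 lines share the seed AAGUGCU and the other two share AAAGUGC.
mmu-miR-291a-3p: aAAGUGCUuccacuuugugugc
mmu-miR-294-3p: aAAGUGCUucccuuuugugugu
mmu-miR-302b-3p: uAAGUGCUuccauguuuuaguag
mmu-miR-17-5p: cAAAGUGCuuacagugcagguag
mmu-miR-20a-5p: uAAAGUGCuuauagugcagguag
In the 3′ UTR of Sdhd the matches to both seeds overlap, starting at nt 13 and 14, and are in capitals in the stretches below.
Sdhd, match to the miR-291a-3p seed: tgacctgggtgcAGCACTTtga
Sdhd, match to the miR-17-5p seed: tgacctgggtgcaGCACTTTgat
Such matches, AGCACTT or GCACTTT, were found in 5 of the 79 members, or 6.33%, against 21.39% of 10976 genes. The 5 were Atp5g1, Ndufa10, Ndufb2, Ndufs4 and Sdhd. The median 3′ UTR was 158 nt in the members and 937 nt in all genes. In the Dicer comparison Ndufs4, a complex I subunit, had a log2 fold change of 0.46 ± 0.40, Ndufa10 -0.33 ± 0.25, Ndufb2 -0.34 ± 0.36 and Atp5g1 -0.72 ± 0.57, with adjusted p between 0.43 and 0.59. Whether any of these matches is used, and its part in the values of Sdhd or the other 4, was not tested.

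Ndufa7, a small accessory subunit of complex I, stood at 237 and 282 CPM in WT and at 136 and 119 in Dicer. The Dgcr8 libraries gave 190 and 181 CPM, Drosha 219 and 196, and Ago 221 and 178, all below WT and above Dicer. Its log2 fold change was -1.03 ± 0.26 in Dicer (adjusted p = 0.026) and between -0.49 and -0.32 in the other knockouts (adjusted p 0.44 to 0.57). The gene is at chr17:33824572-33838317 on the plus strand and shares 22.1% of its coding 28-mers.

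Atp5f1, the b subunit of the stalk that holds the ATP synthase head in place, stood at 229 and 200 CPM in WT. The Dicer libraries had 113 and 102 CPM, the lowest of the 10, and the Ago libraries 121 and 145. In Dgcr8 there were 160 and 125 CPM and in Drosha 187 and 179. The log2 fold change was -1.0 ± 0.26 in Dicer (adjusted p = 0.032), -0.69 ± 0.26 in Ago (0.17), -0.59 ± 0.26 in Dgcr8 (0.48) and -0.23 ± 0.26 in Drosha (0.68). The position is chr3:105942698-105960099 on the minus strand. Atp5f1 shares 63.8% of its coding 28-mers with other genes, and it overlaps Wdr77, which had a log2 fold change of -0.60 in Dicer (adjusted p = 0.25).

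Ndufa4l2 had few counts but the largest change of the 4. WT had 16.4 and 11.7 CPM, or 178 and 281 counts, and the Dicer libraries 2.97 and 0.552 CPM, or 15 counts and 1 count. Drosha gave 3.17 and 1.75 CPM, Dgcr8 5.77 and 2.99, and Ago 6.93 and 13.6, so that the second Ago library lay between the WT libraries. The log2 fold change was -2.76 ± 0.70 in Dicer (adjusted p = 0.027), -2.53 ± 0.72 in Drosha (0.081), -1.63 ± 0.60 in Dgcr8 (0.40) and -0.44 ± 0.58 in Ago (0.73). Without the first Dicer library the Dicer value was -4.64 (adjusted p = 0.071) and without the second -2.24 (0.14), so its size depends on which library is kept. With limma-voom it was -2.78 with an adjusted p of 0.12. The gene, at chr10:127514967-127517154 on the plus strand, overlaps Shmt2, a far more abundant gene on the other strand with a log2 fold change of -0.44 in Dicer (adjusted p = 0.37).

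**Figure D2:**
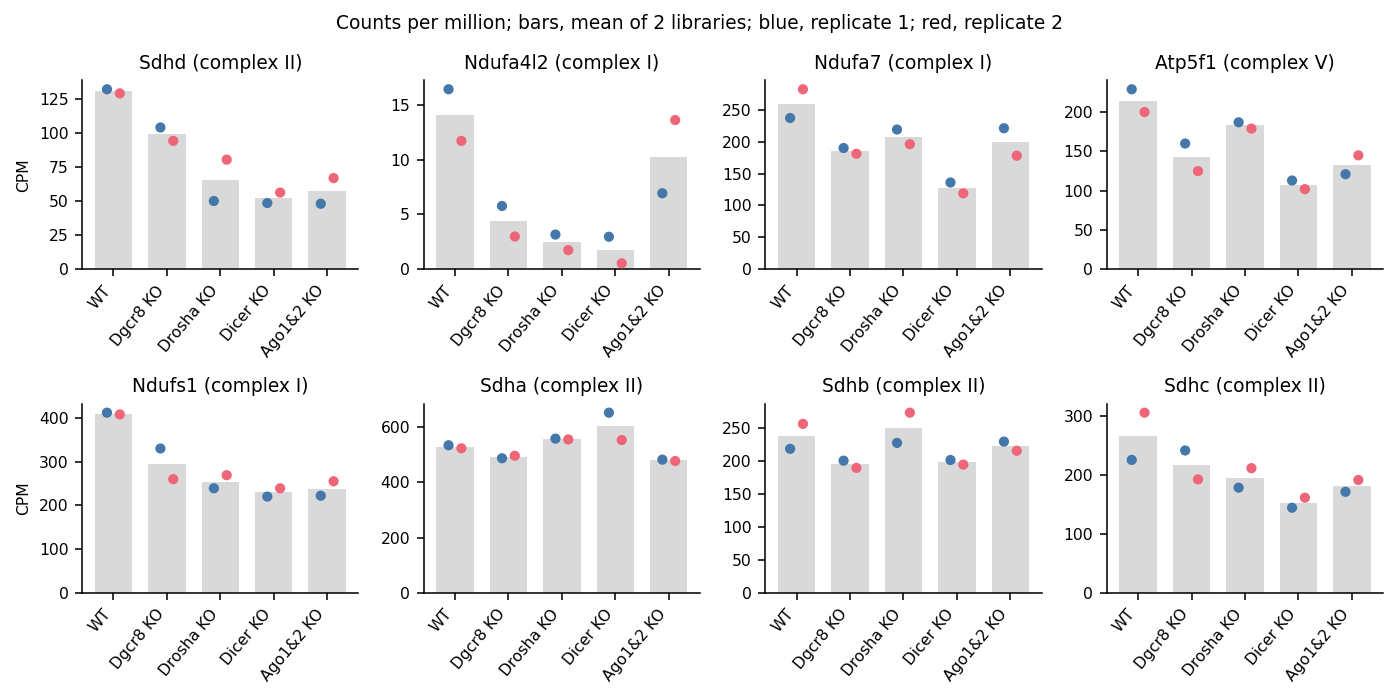
CPM of the 5 members called in a comparison with WT (Sdhd, Ndufa4l2, Ndufa7, Atp5f1 and Ndufs1) and of the other 3 subunits of complex II, with the mean of 2 libraries as a bar and each library as a point. Sdhd fell from 132 and 129 CPM in WT to 48.6 and 56.3 in Dicer, while Sdha was at 534 and 523 in WT and 652 and 553 in Dicer.

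In the other knockouts 0 members were called by edgeR against WT. The background called in either direction was 0.0729% of genes in Dgcr8, 3.44% in Drosha and 2.88% in Ago. Of these, 0.0547%, 2.48% and 1.98% were higher and 0.0182%, 0.966% and 0.902% lower. At an unadjusted p under 0.05 there were 6, 13 and 5 members, or 7.59%, 16.5% and 6.33%, beside 9.81%, 19.2% and 19.7% of all genes. DESeq2 called 1 member in Dgcr8, 6 in Drosha and 2 in Ago, and limma-voom 0, 0 and 1. The background shares above are those of edgeR and do not apply to these 2 tools. The member of Dgcr8 under DESeq2 was Ndufv2, a core iron-sulphur subunit of the NADH-oxidising arm. It had 208 and 203 CPM in WT and 110 and 85.3 in the Dgcr8 libraries, below all others, with an edgeR log2 fold change of -1.07 ± 0.27 and an adjusted p of 0.26. Atp5mpl, a small membrane subunit of the ATP synthase, had the lowest value of complex V in Drosha. Its CPM was 84.4 and 58.4 in WT and 23.7 and 19.7 in Drosha, a log2 fold change of -1.72 ± 0.56 with an adjusted p of 0.12.

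When the mean of the 4 knockouts was set against WT, 3 members fell and 0 rose, against 3.26% of all genes called lower, 3.81% higher and 7.07% in all. They were Sdhd at -0.97 ± 0.22 (adjusted p = 0.025), Ndufa4l2 at -1.84 ± 0.44 (0.031) and Ndufs1 at -0.70 ± 0.19 (0.049). Ndufs1 is the largest subunit of complex I and carries iron-sulphur clusters of its electron path. The WT libraries had 412 and 408 CPM of it, the Dgcr8 pair 330 and 260, the Drosha pair 239 and 269, the Dicer pair 220 and 239 and the Ago pair 222 and 255, every knockout library below WT. Of 16 other settings 10 ended its call. The gene is at chr1:63143596-63176833 on the minus strand and overlaps Eef1b2, at 0.32 on the log2 scale with an adjusted p of 0.48 in the same comparison. Without either WT library, 0 members were called here.

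Taken member by member, most log2 fold changes lay below 0 and few were large. In Dicer 70 of 79 were below 0 and the median was -0.49, beside -0.00 for all genes. The medians were -0.33 in Drosha, -0.22 in Dgcr8 and -0.15 in Ago, beside -0.01, 0.02 and 0.04, with 64, 57 and 51 of 79 below 0. These comparisons share the 2 WT libraries, so they are not independent of each other. In Dicer both libraries lay below both WT libraries for 60 members (75.9%), against 34.6% of all genes, and above them for 3 (3.8%), against 32.7%. For Drosha the counts were 44 below (55.7%, beside 27.9% of genes) and 5 above (6.33%, beside 25.9%). For Dgcr8 they were 30 below (38.0%, beside 22.9%) and 9 above (11.4%, beside 22%), and for Ago 26 below (32.9%, beside 26.1%) and 6 above (7.59%, beside 27.2%).

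By complex, the Dicer medians were -0.47 in complex I, -0.53 in II, -0.26 in III, -0.51 in IV and -0.61 in V. All 8 subunits of complex III were below 0 in Dicer, with Uqcrh and Uqcrq, which are small subunits, at -1.03 ± 0.31 and -0.97 ± 0.30 and an adjusted p of 0.057 for both. In complex IV 13 of 14 were below 0, and the exception, Cox6b1, was at 0.04 ± 0.31. Cox4i2 had 10.2 and 12.9 CPM in WT and 2.18 and 1.65 in Dicer, which gave -2.54 ± 0.86 with an adjusted p of 0.079. In complex V the median in Drosha was -0.60, near that in Dicer. The lowest complex I value after Ndufa4l2 was -2.68 ± 0.87 for Ndufs5, a gene of few counts with 82.1% of its 28-mers shared and an adjusted p of 0.068.

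Other members with a small p in some comparison did not pass the test by edgeR. Ndufb10, an accessory subunit of the membrane arm of complex I, had 111 and 106 CPM in WT, 56.4 and 35.8 in Drosha and 44.1 and 44.7 in Dicer, but 62.0 and 134 in Ago. Its log2 fold change was -1.29 ± 0.38 in Dicer (adjusted p = 0.051) and -1.24 ± 0.38 in Drosha (0.10). Ndufb3, of the same arm, had -1.29 ± 0.42 in Drosha (adjusted p = 0.12) and -0.89 ± 0.41 in Dicer (0.19). Atp5e went from 192 and 260 CPM in WT to 130 and 115 in Drosha and 138 and 132 in Dicer, which gave -0.88 ± 0.27 and -0.74 ± 0.27, both at an adjusted p of 0.10. Atp5g3, which codes for the rotor ring, had 687 and 680 CPM in WT and 452 and 464 in Dicer (-0.58 ± 0.29, adjusted p = 0.23). For Uqcrfs1 the lowest libraries were those of Ago, at 168 and 133 CPM against 218 and 226 in WT (-0.56 ± 0.25, adjusted p = 0.24). Cox7a2l had the lowest value of all members in Dgcr8, at 0.182 and 0.797 CPM against 2.86 and 1.24 in WT, levels too low to place the difference (adjusted p = 0.45).

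Core subunits gave a range of values. In Dicer Ndufs1 was at -0.84 ± 0.25 (adjusted p = 0.055) and Ndufv2 at -0.73 ± 0.27 (0.10), while others lay near 0. Atp5b stood at 3940 and 3550 CPM in WT and 3950 and 3550 in Dicer, a log2 fold change of 0.00 ± 0.29. The alpha subunit Atp5a1 was at 0.10 ± 0.29, the succinate-oxidising Sdha at 0.19 ± 0.25 and the complex III core protein Uqcrc1 at -0.13 ± 0.26. Ndufv1, which binds NADH, was at 0.24 ± 0.26 in Dicer and at 0.52 ± 0.26 in Ago, its highest value. None of these passed the test by edgeR against WT in Dicer, and with 2 libraries a group a log2 difference of the size of these errors could not be told from 0. As a share of all footprints, the 79 genes together took 2.09% and 2.07% of the WT libraries, with 2.09% and 1.97% for the Dgcr8 pair, 2.01% and 1.94% for Drosha, 1.70% and 1.71% for Dicer, and 1.70% and 2.12% for Ago. Both Dicer libraries and the first Ago library gave the lowest shares, and the second Ago library the highest.

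**Figure D3:**
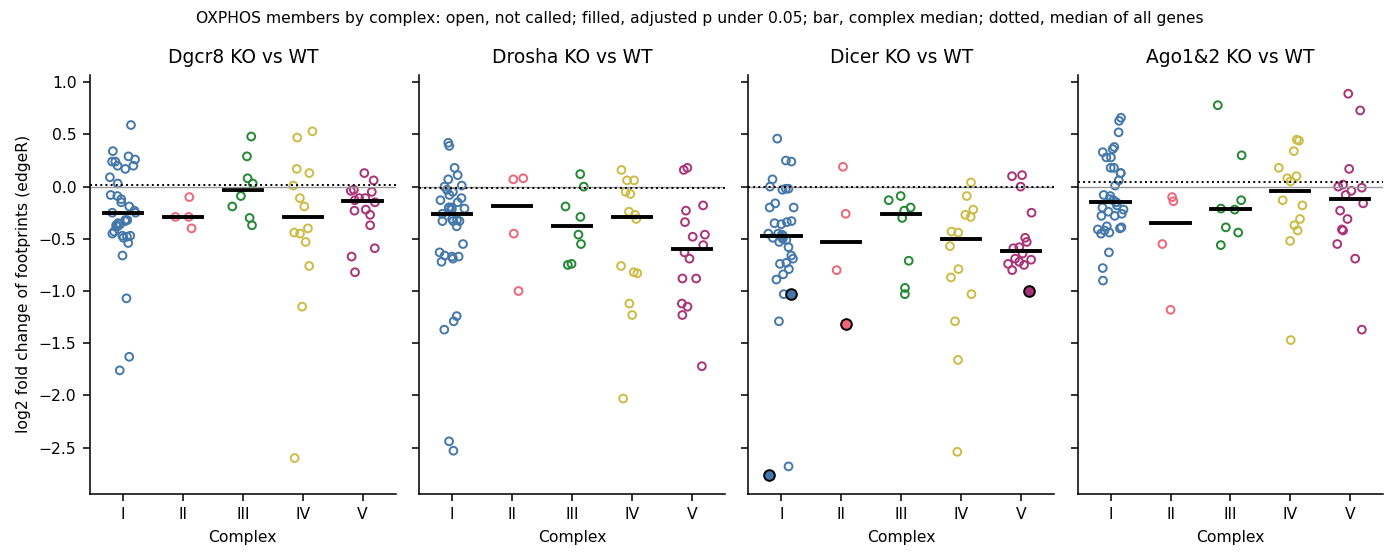
Log2 fold change against WT (edgeR, 2 libraries a group) of each of the 79 members by complex, with filled points for an adjusted p under 0.05, a bar for the median of each complex and a dotted line for the median of all genes. The 4 filled points are all in the Dicer panel, and every complex median there lies between -0.61 and -0.26.

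The libraries of a group did not always go together. Relative to the WT mean on the log2(CPM + 0.5) scale, the median of the members was -0.46 and -0.55 in the Dicer libraries, -0.21 and -0.47 in Drosha, -0.17 and -0.26 in Dgcr8, and -0.44 and 0.08 in Ago. The second Ago library was the highest of all 10 for 27 members, and the second Drosha library the lowest for 25. Leaving out the second Ago library moved the Ago median from -0.15 to -0.44, and leaving out the first moved it to 0.08, so its sign rests on 1 library. The ratio of the second to the first Ago library had a median of 1.91 over the 16 members with 60% or more of shared 28-mers and was above 1 in all 16. Over the other 63 members the median ratio was 1.33, and 50 were above 1. Uqcrb, at 21.4 and 89.0 CPM, and Atp5g1, at 26.0 and 104, are examples, with 24.7 to 39.7 and 34.5 to 44.2 CPM in WT. The part of read placement in this gap was not tested.

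**Figure D4:**
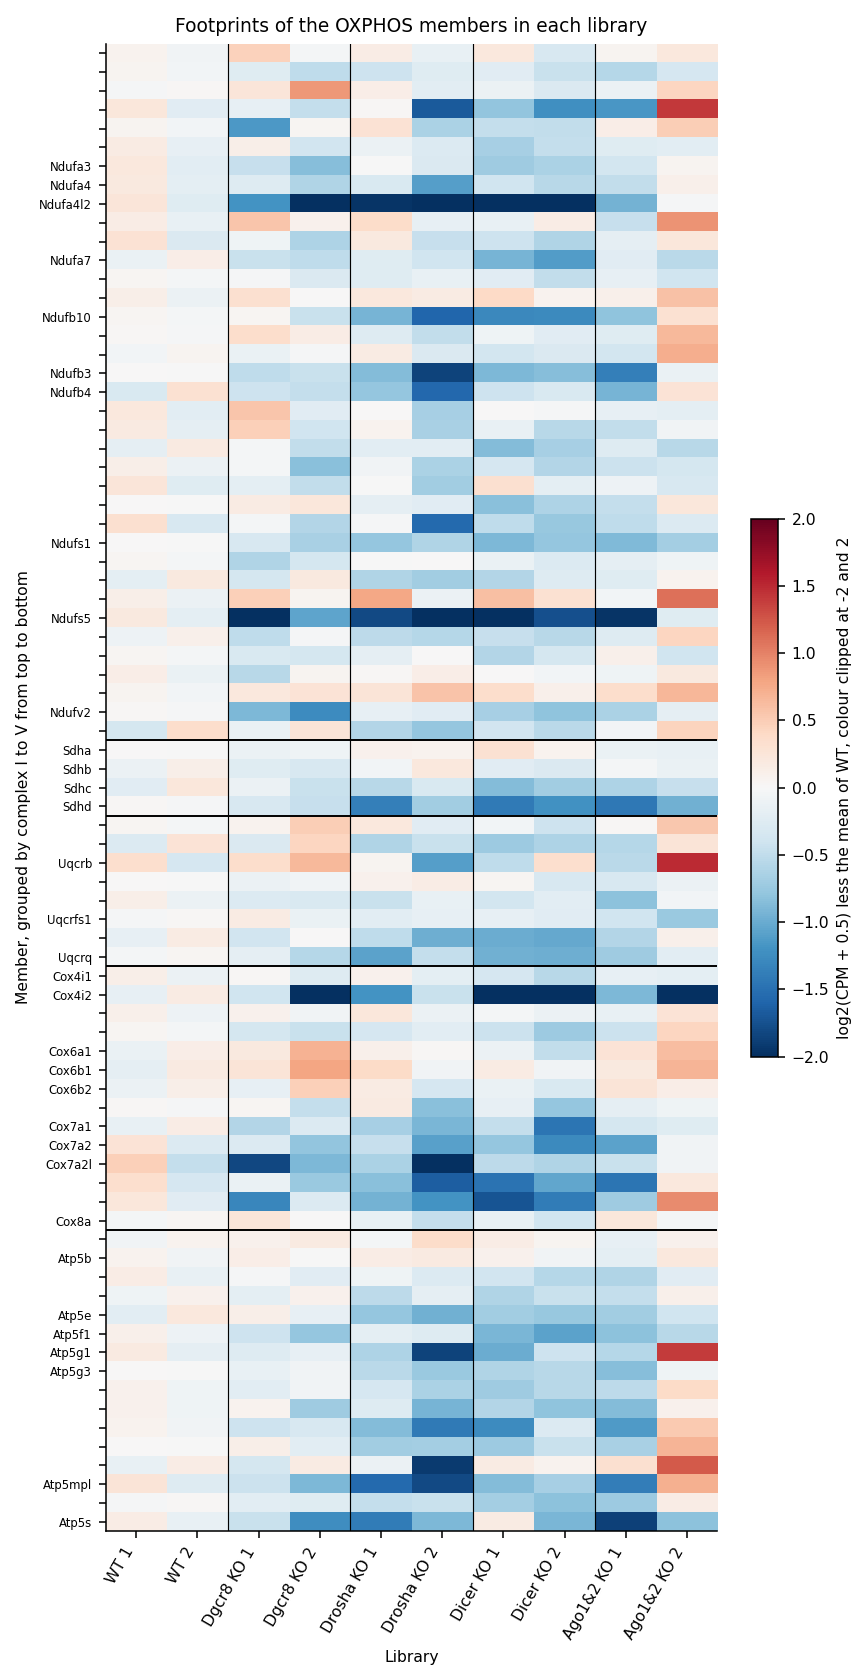
Heat map of log2(CPM + 0.5) less the mean of the 2 WT libraries, with the 79 members as rows from complex I at the top to complex V and the 10 libraries as columns, with names beside selected rows. Blue is below WT and red above, and the second Ago library, in the last column, is the highest of the 10 for 27 members.

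In Dicer and in Drosha the log2 fold changes went with coding length, in the members and over all genes. The members have a median coding length of 411 nt, against 1455 nt over all genes. Among genes with less than 500 nt of coding sequence, the median log2 fold change in Dicer was -0.61 over 48 members and -0.43 over 806 other genes. In Drosha it was -0.55 and -0.40, in Dgcr8 -0.24 and -0.13, and in Ago -0.08 and -0.09. From 500 to under 1000 nt the Dicer medians were -0.45 over 20 members and -0.25 over 2348 other genes. At 1000 nt or more they were -0.13 over 11 members and 0.10 over 7743 other genes. Of the short genes, 3 of 48 members (6.25%) and 55 of 806 others (6.82%) were called lower in Dicer. Spearman's rho between coding length and log2 fold change was 0.35 in Dicer and 0.37 in Drosha over the 79 members, and 0.26 and 0.24 over 10976 genes. For Dgcr8 and Ago it was 0.02 and -0.12 over the members, and 0.15 and 0.20 over all genes. These are descriptions across genes that share libraries, and the part of length in the members' values was not tested.

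**Figure D5:**
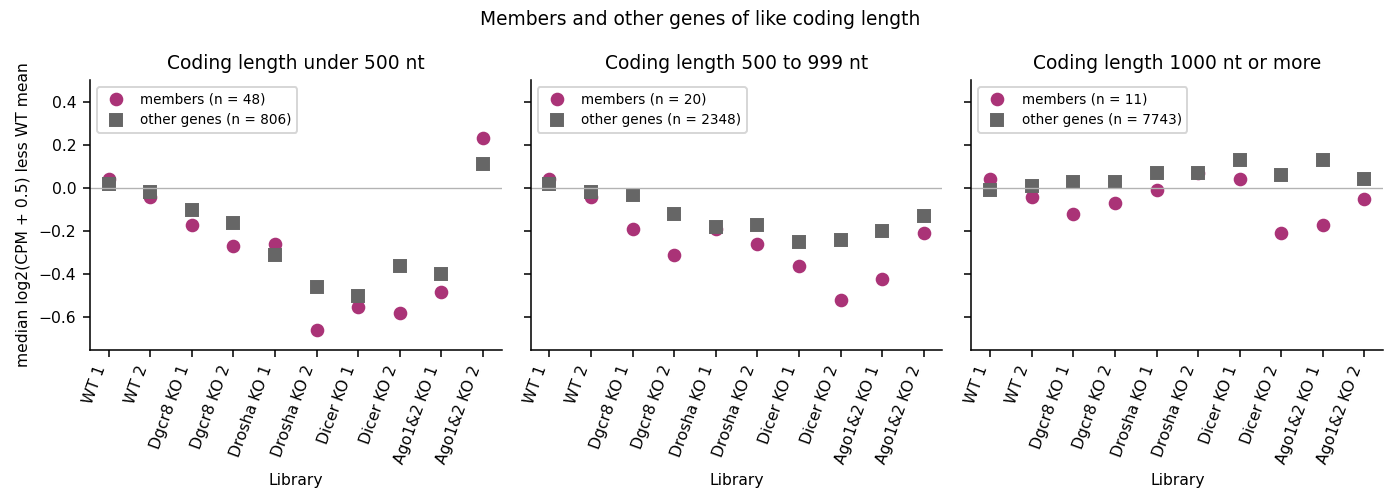
Median log2(CPM + 0.5) less the WT mean in each library for the members (circles) and other genes (squares) in 3 classes of coding length. Under 500 nt both sets lie below WT in the Dicer libraries, at -0.55 and -0.58 for members and -0.50 and -0.36 for other genes, and both lie above it in the second Ago library.

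Nuclear respiratory genes are known to be driven by NRF1, by GABPA of the ETS family and by YY1, and their promoters were read for these motifs. RefSeq (GRCm38.p6) held promoter windows, from 250 bases before to 50 after the start, for 65 of the 79 members, 70 windows in all. The NRF1 motif GCGCANGCG was found on either strand in 28.6% of them, against 6.2% of all 32851 windows held. Those 32851 were not limited to the genes tested here. For the ETS motif CCGGAAG the shares were 22.9% and 8.9%, for the YY1 motif AAGATGGCG 10% and 1.4%, and for ACGTG, the core of the hypoxia response element, 24.3% and 19.6%. None of these motifs lies within another as searched. Ndufa4l2, also called in Dicer, had no window here. Windows of the other 3 members called in Dicer are shown because they differ in these motifs, which are in capitals, with the hypoxia core left in lower case.
Sdhd, chr9:50603800-50604099, minus strand: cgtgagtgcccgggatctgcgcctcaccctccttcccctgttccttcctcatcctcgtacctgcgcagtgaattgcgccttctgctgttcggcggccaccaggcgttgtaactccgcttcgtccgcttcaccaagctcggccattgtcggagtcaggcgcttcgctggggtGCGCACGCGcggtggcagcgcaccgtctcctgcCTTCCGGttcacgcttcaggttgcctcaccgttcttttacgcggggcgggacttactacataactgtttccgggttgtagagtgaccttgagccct
Ndufa7, chr17:33824322-33824621, plus strand: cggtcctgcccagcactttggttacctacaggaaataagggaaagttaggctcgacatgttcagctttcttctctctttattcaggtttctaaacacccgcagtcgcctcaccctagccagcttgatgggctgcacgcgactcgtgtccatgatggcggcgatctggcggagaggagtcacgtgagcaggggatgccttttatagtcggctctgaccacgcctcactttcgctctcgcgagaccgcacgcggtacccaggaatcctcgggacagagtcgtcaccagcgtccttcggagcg
Atp5f1, chr3:105959214-105959513, minus strand: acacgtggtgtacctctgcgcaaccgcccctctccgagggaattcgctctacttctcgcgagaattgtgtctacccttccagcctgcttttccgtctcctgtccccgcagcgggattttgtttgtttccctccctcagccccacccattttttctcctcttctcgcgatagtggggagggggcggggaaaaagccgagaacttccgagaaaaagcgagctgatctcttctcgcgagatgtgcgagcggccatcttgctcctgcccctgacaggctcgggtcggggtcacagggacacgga
The Sdhd window holds NRF1 at base 172 and ETS at base 205, the latter as its reverse complement. Those of Ndufa7 and Atp5f1 hold neither, nor the YY1 motif, though both hold ACGTG. A match is a description of letters and not a site shown to be used. Footprints of the factors themselves did not pass the test by edgeR in any knockout. Nrf1 had log2 fold changes of -0.06 to 0.31, Gabpa of -0.54 to 0.17 and Yy1 of -0.32 to 0.06, with an adjusted p of 0.25 or more.

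Other mitochondrial genes were read from lists that, like the members, were chosen with earlier results of these data known. Of 51 assembly factors, 0 were called in Dgcr8 and Ago, 1 fell in Drosha and 2 fell in Dicer, beside the backgrounds given above. The gene in Drosha was Cox18, which inserts a complex IV subunit into the membrane, with 59.6 and 56.4 CPM in WT and 16.4 and 19.7 in Drosha (-1.68 ± 0.28, adjusted p = 0.013). In Dicer they were Coa5 (-1.57 ± 0.46) and Tmem126a (-1.27 ± 0.37), both at an adjusted p of 0.049. The medians of the assembly factors were -0.32 in Dicer and -0.39 in Drosha.

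Electron carriers and subunits outside the symbol rule gave a mixed picture in Dicer, with 1 of 11 higher and 1 lower. The shares over all genes there were 7.35% higher and 3.76% lower. Gpd2, which feeds electrons from cytosolic NADH into the chain, rose from 301 and 242 CPM to 835 and 516 (1.32 ± 0.37, adjusted p = 0.042). Dhodh, the pyrimidine synthesis enzyme that also reduces ubiquinone, fell from 90.4 and 105 CPM to 40.5 and 43.0 (-1.23 ± 0.28, adjusted p = 0.019). Cyc1, cytochrome c1 of complex III, was at 0.03 ± 0.25. Of 19 genes of the citric acid cycle and pyruvate entry, 0 were called against WT in any of the 4 knockouts by edgeR, and their medians lay between -0.11 and 0.08. For the mean of the knockouts 1 fell, beside 3.26% of all genes called lower. This was fumarase (Fh1), at -0.79 ± 0.19 with an adjusted p of 0.033 by edgeR.

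Among 19 genes of mitochondrial DNA expression and respiratory gene control, 1 fell in Dicer, beside 3.76% of all genes called lower. It was Mterf4, which serves the mitochondrial ribosome (-1.07 ± 0.28, adjusted p = 0.032 by edgeR). Tfam, which packs and transcribes mitochondrial DNA, had 56.9 and 50.2 CPM in WT and 27.1 and 29.8 in Dicer (-0.92 ± 0.33, adjusted p = 0.097). In the import list of 28 genes, 3 fell in Dicer and 1 in Drosha, beside 3.76% and 0.966% of all genes called lower. Dnajc19, part of the motor that pulls proteins into the matrix, was called in both, at -2.20 ± 0.46 (adjusted p = 0.012) and -2.09 ± 0.47 (0.035). The small carriers Timm13 (-1.16 ± 0.29) and Tomm5 (-1.32 ± 0.38) were the others in Dicer. The median of the import list in Dicer was -0.36.

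Ndufa4l2 and Cox4i2 belong to the genes known to respond to low oxygen, so that response was read from 14 genes. In Dicer 4 fell and 1 rose, beside 3.76% and 7.35% of all genes, and the median was -1.22. Those that fell were Slc2a1, the glucose carrier (-1.53 ± 0.32, adjusted p = 0.013), P4ha2, a collagen prolyl hydroxylase (-2.40 ± 0.53, 0.016), Ankrd37 (adjusted p = 0.032, few counts, with 5.16 and 5.02 CPM in WT and 0.395 and 0.552 in Dicer), and Ldha, which makes lactate (-1.02 ± 0.30, 0.049). Kdm3a, a histone demethylase, rose (1.26 ± 0.31, adjusted p = 0.025). P4ha1 and P4ha2 fell in Drosha and P4ha2 in Ago, and in Dgcr8 0 were called. Of all genes, 0.966%, 0.902% and 0.0182% were called lower there. The median of the 14 genes was -1.01 in Drosha, -0.66 in Ago and -0.94 in Dgcr8, so it was below 0 in every knockout. The hypoxia factor gene Hif1a itself had 172 and 215 CPM in WT and 199 and 212 in Dicer (0.09 ± 0.26). P4ha1 and P4ha2 act in collagen formation, which is also a trait of primitive endoderm, whose markers fell in the same libraries (7 of 8 in Dicer and in Ago, 5 of 8 in Drosha). The part of those markers in the values of these genes was not tested.

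Markers of other cell types gave further differences beside the respiratory values. Of 10 trophectoderm markers 5 were counted. In Dicer 4 of these, all keratins, rose and in Drosha 2, beside 7.35% and 2.48% of all genes called higher. The other, Tfap2c, was at 0.63 ± 0.45 in Dicer (adjusted p = 0.39 by edgeR). The summed level of the 5 was 150 to 182 CPM in WT and 618 to 857 in Dicer. Of 9 fibroblast markers 4 were counted, and 3 of them fell in Dicer, beside 3.76% of all genes called lower. Their sum was 220 to 248 CPM in WT and 41.4 to 85.4 in Dicer. Of 9 muscle and heart markers 3 were counted, and 1, the long gene Ttn, rose in Dicer and in Drosha. In those libraries Actn2 ran from 2.76 to 10.9 CPM and Tnni3 from 0.989 to 1.65. Among pluripotency markers Klf4 fell in Drosha, Dicer and Ago, and Pou5f1 and Nanog lay between -0.09 and 0.16 in all 4 comparisons.

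Between knockouts, 0 members differed in any of the 6 comparisons by edgeR. The background called there was 4.07% of genes for Dgcr8 against Dicer, 0.501% for Dgcr8 against Drosha, 0.483% for Dgcr8 against Ago, 0.547% for Dicer against Ago, 0.0455% for Drosha against Ago and 0.00911% for Drosha against Dicer. At an unadjusted p under 0.05 there were between 2 and 8 members, or 2.53% to 10.1%, beside 7.55% to 19.0% of all genes. The members' share exceeded that of all genes only in Drosha against Ago, at 10.1% beside 9.25%. DESeq2 called 1 in Dicer against Ago, and limma-voom called 0, with no share of all genes given for these tools. The member with the smallest p was Cox7c in Dicer against Ago (-2.0, adjusted p = 0.17), Ndufv2 in Dgcr8 against Drosha (-0.88, 0.21) and Ndufc1 in Dgcr8 against Dicer (0.94, 0.12). It was Atp5g1 in Drosha against Ago (-1.87, adjusted p = 0.37), Sdhd in Dgcr8 against Ago (0.78, 0.30) and Atp5f1 in Drosha against Dicer (0.77, 0.49). Against Dicer, 65 of 79 members were above 0 in Dgcr8, beside 5762 of 10978 genes, with medians of 0.36 and 0.04. When Dicer was compared with Ago, 9 of 79 members were above 0, beside 5213 of 10978 genes, with medians of -0.37 and -0.03. The call of Sdhd and the other 3 in Dicer is therefore not shown to differ from their values in the other knockouts.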

How the data were processed

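Whole-number counts per gene were deposited by the authors in 1 table of 10 ribosome profiling libraries, with no normalization. The submitters' processing notes name Trimmomatic, Bowtie2, mm10 (GRCm38) and dm6 (BDGP6). Counting tool, annotation, strand and gene choice are not given in the sources used here. Per the labels' protocols, Drosophila spike-ins were added, but the table held mouse genes alone. Columns were matched to samples by library number, with replicate numbers from the titles, which for Ago differ from those in the column names. Of the symbols, 16 that had become dates were restored from gene identifiers.

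Genes were filtered with filterByExpr (33 removed, 10978 tested) and fitted with edgeR 4.0.16 in R 4.3.3, with TMM scaling and 1 mean per group over 10 libraries (5 residual degrees of freedom, biological coefficient of variation 0.306). P-values are 2-sided, with Benjamini-Hochberg adjustment over all genes tested and a threshold of 0.05. Each SE is the size of the log2 fold change divided by the root of its F statistic, and CPM uses scaled library sizes. Coding lengths, UTRs and coordinates are from GENCODE M21 (GRCm38), with the longest coding sequence of each gene. Limits from counts cover counting error only. The fit was tested on counts simulated from its own means, library sizes and dispersions. That is no check of batch, clone or replicate effects in these data.

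Alternatives were DESeq2 1.42.0, limma-voom (limma 3.58.1), DESeq2 size factors, total counts, no filter, a replicate block, only the groups compared, and leaving out each library. Named were members called against WT or, with fewer than 6 called, those with the smallest p up to 6, the densest and least dense of each complex, the isoform groups, the Sdh genes, and up to 3 per other list and comparison by adjusted p. Other genes, such as those with seed matches, core subunits, Uqcrh, Cox7c and regulators, were named after their values were seen. The members and lists were chosen with earlier results of these data known.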

Additional observations from a re-analysis of the deposited data

Results flagged for a closer look

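Pcx, pyruvate carboxylase, is 1 of the 19 genes of the citric acid cycle list and was flagged because its values differed between 2 knockouts. It was 1.29 higher on the log2 scale in the Dgcr8 than in the Dicer libraries by edgeR. The error and adjusted p of that difference are not given here. Its footprints stood at 112 and 141 CPM in Dgcr8, 51.2 and 51.9 in Dicer, and 69.5 and 71.6 in WT. Against WT neither passed the test, with 0.84 ± 0.27 in Dgcr8 (adjusted p = 0.34) and -0.45 ± 0.28 in Dicer (0.31). Of all genes, 4.07% were called by edgeR in Dgcr8 against Dicer.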

How the results depend on the processing

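With DESeq2, 1 member was called in Dgcr8 against WT, 6 in Drosha, 12 in Dicer, 2 in Ago, 5 for the mean of the knockouts, and 1 in Dicer against Ago. With limma-voom Ago gave 1. With the fit limited to the groups compared, Drosha gave 2 and Dicer 24. With the replicate number as a block, Drosha gave 1, Dicer 12, Ago 1 and the mean of the knockouts 6. The labels do not say that equal numbers share a day or culture, the correlations of their deviations ran from 0.061 to 0.287, and 2 numbers do not settle whether they pair the libraries. For Ago, table columns and titles give different numbers, and the titles' were used. Total counts gave 6 in Dicer. The shares of all genes called under these settings, or with 1 library left out, are not given here, so these counts have no background beside them. All calls against WT under these settings were lower in the knockout.

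Leaving out 1 library at a time gave 0 to 2 members in Drosha, 0 to 11 in Dicer, 0 to 1 in Ago, 0 to 8 for the mean, and 0 to 2 in Drosha against Ago and in Dicer against Ago. In Dicer it was 0 without either library of WT or Dicer and 11 without either Ago library. Medians of all members ran from -0.28 to -0.15 in Dgcr8, -0.48 to -0.20 in Drosha, -0.55 to -0.44 in Dicer and -0.44 to 0.08 in Ago. For complex I they ran from -0.39 to -0.14, -0.50 to -0.13, -0.50 to -0.40 and -0.26 to 0.05 in that order. For complex II they were -0.40 to -0.14, -0.35 to -0.08, -0.70 to -0.35 and -0.47 to -0.24. For complex III they were -0.15 to 0.02, -0.38 to -0.20, -0.47 to -0.22 and -0.59 to 0.02. For complex IV they were -0.30 to -0.05, -0.48 to -0.24, -0.74 to -0.39 and -0.27 to 0.07. For complex V they were -0.22 to -0.12, -0.71 to -0.49, -0.64 to -0.55 and -0.68 to 0.12.

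Scaling moved the complex III median in Drosha from -0.38 to -0.37 (DESeq2 size factors) and -0.33 (total counts), and that of complex V in Dgcr8 from -0.14 to -0.12 and -0.11. With the median coding length over transcripts, WT density was 19.2 for Atp5s, 2630 for Cox4i1, 2080 for Ndufa4, 393 for Sdha and 655 for Sdhc. Over the alternatives of the calls, Sdhd in Dicer ranged from -1.42 to -1.21 (adjusted p 0.0013 to 0.18), Ndufa7 from -1.16 to -0.90 (0.002 to 0.22), Atp5f1 from -1.09 to -0.91 (0.0043 to 0.19) and Ndufa4l2 from -4.64 to -2.24 (0.0027 to 0.14). The cause of these differences was not tested. Low depth of the Drosha and Dicer libraries limits Ndufa4l2, Ndufs5 and Cox4i2.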
